A study of Mus musculus with 5 samples.

Results

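The genes described here are the chemokines and the chemokine receptors of the mouse, read in liver cells of young, adult and partially hepatectomised mice. The rule reads names and no measured value: it takes all gene symbols beginning with Ccl, Cxcl, Ccr or Cxcr and a digit, together with Cx3cl1, Cx3cr1, Xcl1, Xcr1 and the atypical receptors Ackr1 to Ackr4. The rule took 67 of the 31053 annotated features, which carry 62 distinct symbols, since Ccl19, Ccl21a, Ccl21b, Ccl21c and Ccl27 are each listed under 2 identifiers. Of the 67 features, 44 are ligands, 19 are signalling receptors and 4 are atypical receptors.

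Liver cells of C57BL/6J mice were obtained by perfusion, cleared of dead cells with a commercial kit and profiled with a 10x v3 droplet kit, with 1 library in each of 5 groups. The groups were postnatal day 14 (P14) mice, adult control mice of 8 weeks, and adult mice taken 24 h, 48 h and 96 h after partial hepatectomy, an operation that removes most liver lobes and starts regrowth, performed at 8 weeks of age. No allele, transgene or drug is named for any group, and how many animals, of which sex, lie behind a library is not stated. The adult control is named as such by its title, source and age, although 1 protocol field counts it with the hepatectomised mice, and it was used as the control. The adult control also carries the code L002 in its description where the other 4 libraries carry L001, so whatever that code marks cannot be told apart from the difference between control and other groups.

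Chemokines are small secreted proteins that guide the migration of leukocytes. They bind receptors on the target cell, which signal through inhibitory G proteins, whereas the atypical receptors bind and remove or redistribute ligands without that signal. In the liver, hepatocytes, sinusoidal endothelial cells and resident macrophages are known sources of ligands, and neutrophils, monocytes, NK cells, T cells, B cells and dendritic cells carry different sets of receptors.

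The 170 bases before the RefSeq transcription start (build GRCm38.p6) are shown for 6 members chosen by hand, which do not stand for the members as a whole. They are the hepatocyte ligands Cxcl1 and Cxcl14, the neutrophil and monocyte ligands Cxcl2 and Cxcl3, the ligand Cxcl10 and the endothelial receptor Ackr3. Each sequence is written 5' to 3' in the direction of the gene. Capitals mark matches to an NF-kB-like motif or an AP-1-like motif on either strand or to a TATA-like motif on the forward strand. The letters of the motifs follow the sequences, and no 2 matches overlap in these windows.
Cxcl1, chr5:90891075-90891244, plus strand: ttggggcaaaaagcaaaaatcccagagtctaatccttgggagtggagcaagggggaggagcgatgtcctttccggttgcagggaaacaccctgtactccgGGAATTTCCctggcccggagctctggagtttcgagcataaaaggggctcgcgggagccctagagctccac
Cxcl2, chr5:90903729-90903898, plus strand: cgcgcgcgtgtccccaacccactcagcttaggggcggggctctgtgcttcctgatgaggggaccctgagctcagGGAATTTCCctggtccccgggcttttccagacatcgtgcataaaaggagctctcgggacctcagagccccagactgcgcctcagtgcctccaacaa
Cxcl3, chr5:90785931-90786100, plus strand: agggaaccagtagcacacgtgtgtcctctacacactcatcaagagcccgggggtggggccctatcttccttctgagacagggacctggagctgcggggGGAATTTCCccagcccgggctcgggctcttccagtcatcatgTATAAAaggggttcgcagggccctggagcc
Cxcl10, chr5:92348890-92349059, minus strand: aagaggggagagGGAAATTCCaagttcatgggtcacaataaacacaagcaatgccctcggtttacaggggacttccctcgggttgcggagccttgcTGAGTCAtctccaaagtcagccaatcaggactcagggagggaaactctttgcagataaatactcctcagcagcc
Cxcl14, chr13:56296552-56296721, minus strand: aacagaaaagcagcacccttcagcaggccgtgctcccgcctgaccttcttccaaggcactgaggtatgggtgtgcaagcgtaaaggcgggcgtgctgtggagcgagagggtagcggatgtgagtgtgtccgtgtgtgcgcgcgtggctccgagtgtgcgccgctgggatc
Ackr3, chr1:90203810-90203979, plus strand: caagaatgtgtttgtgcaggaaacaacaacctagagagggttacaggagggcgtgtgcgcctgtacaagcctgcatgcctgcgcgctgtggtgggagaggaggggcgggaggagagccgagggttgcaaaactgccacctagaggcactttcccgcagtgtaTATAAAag

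The NF-kB-like letters GGANTTTCC, searched on both strands in the 250 bases before the start, were found in 5 of the 46 members whose promoters were matched by symbol (10.9%), against 283 of 27025 promoters of all genes (1.05%). The 5 members were Cxcl1, Cxcl2, Cxcl3, Cxcl10 and the receptor Ccr3. The match lay 70 bases before the start in Cxcl1, 96 in Cxcl2, 72 in Cxcl3 and 158 in Cxcl10. Cxcl1, Cxcl2 and Cxcl3 share the identical letters and lie near each other on chromosome 5, so they are not independent cases. Matches were counted at the first start listed for each gene, so matches at the other starts of the 4 members with several starts do not enter. The AP-1-like letters TGANTCA were found in 4 of 46 members (8.70%) against 6.87% of all promoters, and TTCNNNGAA, the STAT-like letters, in 4 of 46 (8.70%) against 7.18%. TATAAA, the TATA-like letters, searched on the forward strand, was found in 11 of 46 members (23.9%) against 8.12%. It was counted at any place in the window, such as 8 bases before the start in Ackr3, 30 in Cxcl3 and 195 in Cxcl9. These are matches of letters in a window and not measured binding sites.

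Each library was read in 3 classes of barcodes. Leukocytes were barcodes with at least 1000 unique molecular identifiers (UMIs, counted molecules) and 500 genes, under 10% mitochondrial UMIs and at least 3 UMIs of Ptprc, Coro1a and Laptm5. They numbered 976 in the adult control, 592, 1166 and 665 in the 24 h, 48 h and 96 h libraries and 251 at P14. Endothelial barcodes had at least 3 of 7 endothelial genes and no Ptprc, and numbered 78, 233, 142, 128 and 52 in the same order. Hepatocytes had at least 5000 UMIs and 10% to 30% mitochondrial UMIs, and numbered 924, 1160, 720, 769 and 2090. Libraries held 80927744 to 136110607 UMIs in all. Median UMIs per barcode were 4632 to 8543 in leukocytes, 879.5 to 2193.5 in endothelial barcodes and 18583.5 to 38922.5 in hepatocytes. Summed levels of the 6 hepatocyte markers were 46948 to 183628 UMIs per 1000000 (CPM) in hepatocytes, but also 8763 to 47441 CPM in endothelial barcodes. The 7 endothelial genes summed to 5699 to 11732 CPM in endothelial barcodes. They are the genes that select this class, so their level there follows from the rule. Free RNA was read from droplets without a cell, the 40000 barcodes that follow the 20000 with the most UMIs, and its expected share of UMIs was highest in the adult control in each class: 20.2% in leukocytes, 44.6% in endothelial barcodes and 9.18% in hepatocytes. The lowest shares were 3.3% in leukocytes, 7.64% in endothelial barcodes (both at P14) and 0.984% in hepatocytes (at 48 h). Any 2 libraries shared between 0 and 4 barcodes among the 3 classes.

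Levels are CPM summed over the barcodes of a class without the 13 mitochondrial genes. With 1 library in each group there is no replicate spread and no test between groups. The intervals in brackets are exact 95% Poisson or binomial intervals and cover counting error only. A member is called higher or lower where log2((CPM + 1)/(CPM + 1)) against the adult control passed 2-fold and the pair of libraries held at least 20 UMIs, and the share of all genes passing the same rule is given as background. Log2 ratios are on this scale, whereas printed folds and their intervals are plain ratios of CPM without the added 1. Folds from levels near 0 CPM are therefore larger than the log2 ratios of the same pairs imply. The 4 comparisons share the adult control, so any oddity of that library enters all of them.

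Of the 67 features, 37 reached 20 UMIs in at least 1 library of 1 class: 34 in leukocytes, 19 in hepatocytes and 7 in endothelial barcodes. Another 15 were seen but stayed under 20 UMIs in each class and library. The remaining 15 had no UMI in any of the 3 classes, among them both listed copies of Ccl19, Ccl21a, Ccl21b, Ccl21c and Ccl27, together with Ccl27b, Ccl26, Ccl11, Ccl8 and Ccr1l1. Most members in these livers were therefore read through leukocytes.

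Hepatocytes carried 4 ligands at more than 90 CPM in at least 1 library: Cxcl1, Cxcl12, Ccl9 and Cxcl14. Cxcl14, a CXC chemokine made by epithelial cells (chr13:56288643-56296551), stood at 4.58 CPM in the adult control, 92.2, 43.9 and 12 in the 24 h, 48 h and 96 h libraries and 0.0156 at P14. These levels rest on 61, 1780, 909, 160 and 1 UMIs in 57, 600, 347, 116 and 1 barcodes. All 3 libraries after surgery were above the adult control, with the highest level at 24 h and P14 close to 0. Against the adult control Cxcl14 was 20.1-fold higher at 24 h [15.6 to 26.4], 9.58-fold at 48 h [7.39 to 12.6] and 2.61-fold at 96 h [1.93 to 3.56], and 293-fold lower at P14 [50.7 to 1.18e+04]. Droplets without a cell held 2.93, 108, 49.2, 15.9 and 0 CPM of Cxcl14 in the same order, so free RNA was high and low in the same libraries. After subtraction of the expected free RNA the log2 ratio at 24 h was 4.01, against 4.06 without it. The dissociation gene list stood at 845, 830, 931, 1117 and 596 CPM in hepatocytes in the same order, and its part in these differences was not tested.

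Cxcl1, a ligand of Cxcr2 and an attractant of neutrophils (chr5:90891241-90893115), stood at 123 CPM in the adult control, 210.0, 101 and 79.8 in the 24 h, 48 h and 96 h libraries and 15.2 at P14. The 24 h library was highest at 1.71-fold above the control [1.61 to 1.81], short of 2-fold, and P14 was 8.06-fold lower [7.44 to 8.74]. Free RNA held 76.4, 316, 127, 65.6 and 23.5 CPM of Cxcl1, above the hepatocyte level at 24 h, 48 h and P14, while free RNA was expected to supply 3.98% of hepatocyte UMIs at 24 h. Ccl9, a CC chemokine that binds Ccr1 (chr11:83572919-83578636), stood at 109.9, 104, 253, 228 and 92.6 CPM in the order adult control, 24 h, 48 h, 96 h and P14. It was 2.30-fold higher at 48 h [2.173 to 2.44] and 2.08-fold at 96 h [1.95 to 2.21] (a log2 ratio of 0.60 with 10% to 20% mitochondrial UMIs), while 24 h and P14 lay near the control. Free RNA held 108, 113, 197, 180 and 131 CPM of Ccl9. Cxcl12, the ligand of Cxcr4 and Ackr3 (chr6:117168535-117181367), stood at 157, 114, 177, 178 and 146 CPM in hepatocytes against 122, 56.5, 110, 89.5 and 126 in free RNA. It passed 2-fold in none of the 4 comparisons.

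**Figure D1:**
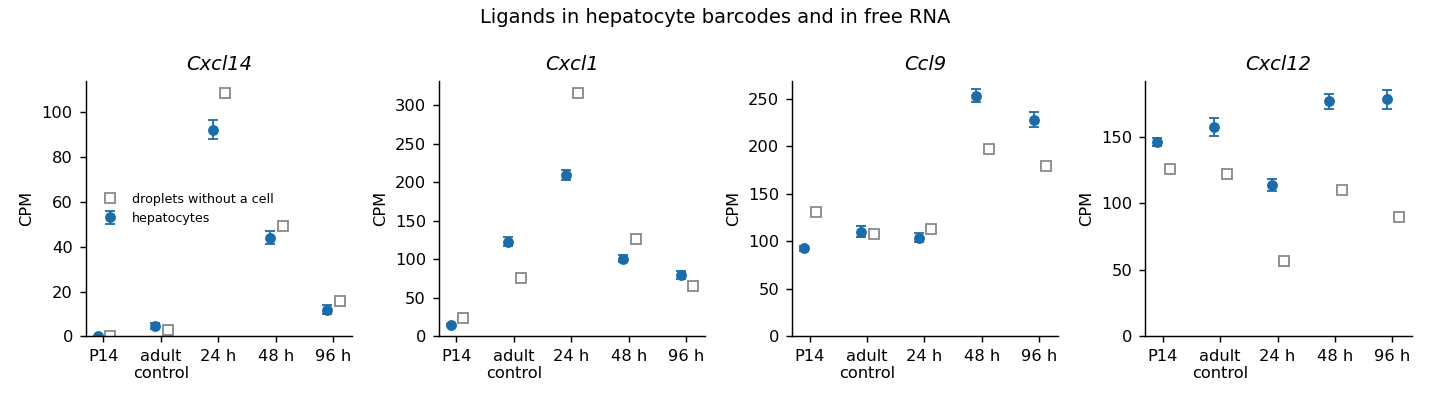
Level of Cxcl14, Cxcl1, Ccl9 and Cxcl12 in hepatocytes (filled points, CPM, bars are exact 95% Poisson intervals of the count) and in droplets without a cell (open squares) in each of the 5 libraries, 1 per group. Cxcl14 peaks at 92.2 at 24 h in hepatocytes and at 108 in free RNA, and Cxcl12 in hepatocytes stays between 114 and 178.

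Among all members tested in hepatocytes, 2 of 15 were higher at 24 h (Cxcl14 and Cx3cr1; background 8.4%) and 3 were lower (Ccl5, Cxcl9 and Cxcr6; background 6.87%). At 48 h 2 of 19 were higher (Cxcl14 and Ccl9; background 8.71%) and 0 were lower (background 6.62%). At 96 h 2 of 14 were higher (the same 2; background 4.83%) and 3 were lower (Ccl5, Cx3cr1 and Ccr2; background 1.98%). At P14 0 of 16 were higher (background 8.44%) and 7 were lower (background 11.7%): Cxcl1, Cxcl14, Ccl5, Cxcl9, Cxcl10, Cx3cr1 and Cxcr6. The median log2 ratio of the members at P14 was -0.82, beside -0.16 over all genes tested. With TMM scaling (which sets the bulk of genes level between libraries) the log2 ratios of hepatocytes at P14 move by 0.29 towards higher values and the 7 calls stay, and at 96 h 1 member was higher and 3 were lower. The counts depend on the mitochondrial limits: with 5% to 30% mitochondrial UMIs 14, 9 and 20 members passed 2-fold at 24 h, 48 h and P14. All 3 lower calls at 96 h changed sign with these limits, to log2 ratios of 0.075 for Ccl5 and 0.19 for Cx3cr1 with 5% to 30% and 0.039 for Ccr2 with 10% to 20%, and a pseudocount of 10 CPM left 0 calls at 96 h. Cxcl9 at 24 h fell short of 2-fold, at -0.37, with the top barcode left out.

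Cx3cr1, the receptor of the membrane-bound chemokine Cx3cl1, is known from monocytes, yet hepatocyte barcodes held 24, 136, 54, 0 and 1 UMIs of it in the order adult control, 24 h, 48 h, 96 h and P14. Those UMIs fell in 11, 73, 23, 0 and 1 barcodes, of which 2, 4, 5, 0 and 0 also held a leukocyte marker. The level at 24 h was 7.04 CPM against 1.8 in the control, 3.91-fold higher [2.52 to 6.31]. The level at 96 h was at least 8.04-fold lower than in the control, taking 3 counts as the limit of a count of 0, and at P14 it was 115-fold lower [18.8 to 4744]. In GENCODE M21 the span of Cx3cr1 (chr9:119901616-120069879) overlaps that of 5 other protein-coding genes, among them Gorasp1, Csrnp1 and Xirp1 on the same strand, so its assignment is uncertain. In hepatocytes with 5% to 30% mitochondrial UMIs the log2 ratio at 96 h was 0.19 in place of -1.49, and with 10% to 20% the ratios at 96 h and P14 were both 0.

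The interferon-induced ligands Cxcl9 and Cxcl10, which bind Cxcr3, were low in hepatocytes. Cxcl9 stood at 10.8, 4.76, 5.17, 6.35 and 2.16 CPM and Cxcl10 at 5.93, 3.57, 2.99, 4.18 and 0.89 in the order adult control, 24 h, 48 h, 96 h and P14, with a single barcode holding up to 52% of the Cxcl9 UMIs and 48% of the Cxcl10 UMIs of a library. Both were highest in the adult control. Ccl27a stood between 9.84 and 17.2 CPM and Ccl25, a ligand of Ccr9, between 3.62 and 6.67 CPM, with neither past 2-fold. Ccl5 in hepatocytes, at 1.5 to 11.4 CPM, was at or below its level in free RNA (5.91 to 70.9 CPM) in all 5 libraries. It had 152, 39, 232, 28 and 96 UMIs in the order adult control, 24 h, 48 h, 96 h and P14, of which free RNA was expected to supply 16.3, 8.03, 14.5, 3.52 and 10.9.

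Endothelial barcodes held few members, and the atypical receptor Ackr3 differed most from the adult control. Ackr3 (chr1:90203980-90216751) binds Cxcl12 and internalises it without signalling through G proteins. It stood at 4.32 CPM in the adult control, 251, 156 and 27.6 in the 24 h, 48 h and 96 h libraries and 152 at P14, from 1, 128, 51, 10 and 47 UMIs in 1, 45, 11, 6 and 9 barcodes. The adult control and 96 h libraries were low and the other 3 high. Since the control level is 1 UMI, the ratios have wide counting intervals: 58.0-fold at 24 h [10.2 to 2309.6], 36.0-fold at 48 h [6.18 to 1449.6] and 35.2-fold at P14 [6.02 to 1421]. Free RNA held 0.10 to 1.66 CPM of Ackr3. The barcode with the most Ackr3 held 9% of its UMIs at 24 h, 24% at 48 h, 50% at 96 h and 34% at P14.

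Markers of Kupffer cells, the macrophages of the liver sinusoid, moved with Ackr3 after surgery. The 9 listed Kupffer genes summed to 73.5, 549, 497, 91.0 and 71.3 CPM in endothelial barcodes in the order adult control, 24 h, 48 h, 96 h and P14. After surgery the defining genes Clec4f, Vsig4, Timd4, Cd5l and Adgre1 were at 0 in these barcodes, and the list was carried by the complement genes C1qa, C1qb and C1qc, with 57, 196 and 26 UMIs at 24 h. At 24 h the 143 barcodes without a Kupffer-list UMI held 10 UMIs of Ackr3 (49.6 CPM), the 52 with 1 or 2 held 17 (173 CPM) and the 38 with 3 or more held 101 (480 CPM), and those last barcodes were also deeper, at a median of 6279 UMIs against 1071 in the first. At 48 h the same 3 groups held 0, 5 and 46 UMIs of Ackr3 in 99, 28 and 15 barcodes. At P14 42 of the 47 UMIs lay in the 43 barcodes without a Kupffer-list UMI (163 CPM) and 5 in the 4 barcodes with 3 or more (151 CPM). The dissociation gene list (immediate-early and heat shock genes that respond to tissue digestion) moved in the same libraries, at 891, 1546, 2289, 791 and 739 CPM. The part of these markers and genes in the difference after surgery was not tested. Among barcodes without a Kupffer-list UMI, Ackr3 thus stood at 49.6 CPM at 24 h, 0 at 48 h and 163 at P14, and at 0 UMIs in the 67 such barcodes of the control.

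Wnt2, a Wnt ligand of sinusoidal and central vein endothelium that was looked at after the values were seen, was found in 36 of the 45 Ackr3-bearing barcodes at 24 h, in 11 of 11 at 48 h and in 9 of 9 at P14. C1qb was found in 34 of 45 at 24 h, 10 of 11 at 48 h and 2 of 9 at P14. Over all endothelial barcodes at 24 h, Wnt2 was found in 87 of 233 and C1qb in 72 of 233. Deeper barcodes hold more genes of any kind, so these counts are descriptions and are not compared. Wnt2 itself stood at 169, 525, 742, 196 and 295 CPM in the order adult control, 24 h, 48 h, 96 h and P14, so among the adult libraries 24 h and 48 h were high for both genes.

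Cxcl16, the membrane-bound ligand of Cxcr6, was the ligand of endothelial barcodes that lay clear of free RNA in each library. It stood at 138 CPM [94.6 to 195] in the adult control, 127 [98.3 to 162], 214 [167 to 269.9] and 121 [88.1 to 163] in the 24 h, 48 h and 96 h libraries and 100.5 [68.3 to 143] at P14, against 1.21 to 4.67 CPM in free RNA. The intervals overlap apart from 48 h against 24 h, 96 h and P14, and no ratio to the control passed 2-fold. Ccl2, a ligand of Ccr2, had 20 UMIs at 24 h in 10 barcodes, 50% of them in 1 barcode, against 0 in the control, at least 3.02-fold higher. Cxcl1, Cxcl12, Cxcl14 and Ccl9 were at or under the level of free RNA in endothelial barcodes of all 5 libraries, apart from 1 UMI of Cxcl14 in the control. With free RNA subtracted, the log2 ratios of Cxcl14 at 24 h (0.66) and of Cxcl12 at P14 (-0.76) fell short of 2-fold. The other atypical receptors had few UMIs: Ackr2, a scavenger of inflammatory CC ligands, stood at 13 to 48.8 CPM, Ackr4 at 0 to 35.8 CPM and Ackr1 at 6.1 to 19.6 CPM, none with 20 UMIs in a library.

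**Figure D2:**
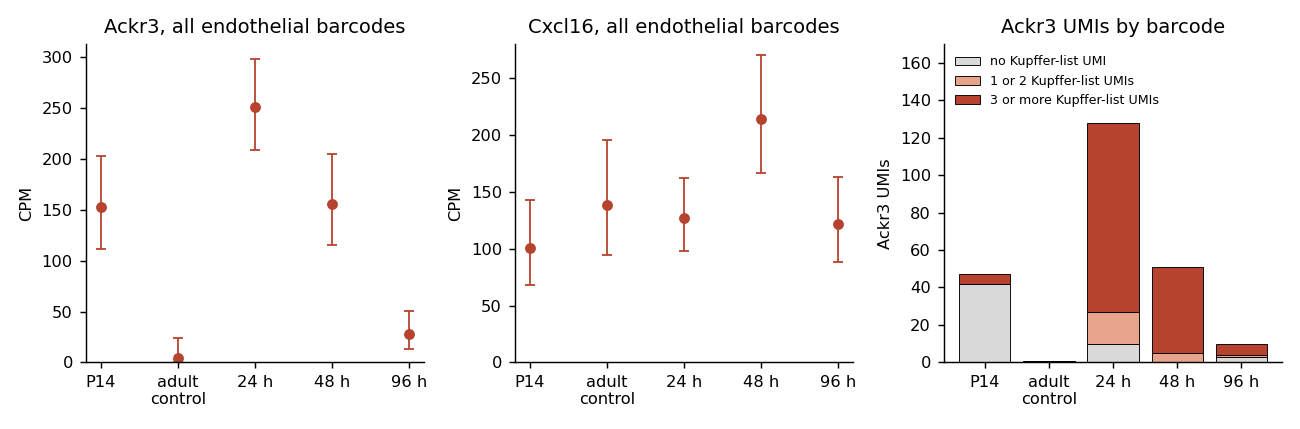
Ackr3 and Cxcl16 in endothelial barcodes (CPM, bars are exact 95% Poisson intervals) and the Ackr3 UMIs of each library divided by how many UMIs of the Kupffer list the barcode held (stacked bars). Ackr3 is high at 24 h, 48 h and P14, and barcodes with 3 or more Kupffer-list UMIs hold 101 of its 128 UMIs at 24 h, while barcodes with none hold 42 of 47 at P14.

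Over all members tested in endothelial barcodes, 3 of 8 were higher at 24 h (Ackr3, Ccl2 and Cxcl14; background 17.7%) and 1 was lower (Cxcl12; background 10.8%). Without barcodes holding a Kupffer-list UMI, 0 were higher and 1 was lower (Cxcl12) at 24 h, and 0 passed 2-fold at 48 h. Ackr3 was left with 10 UMIs at 24 h, under the minimum of 20. At 48 h 1 of 4 was higher (Ackr3; background 19.3%) and 0 were lower (background 12.9%). At 96 h 0 of 4 were higher (background 6.62%) and 0 were lower (background 7.09%). At P14 1 of 4 was higher (Ackr3; background 21%) and 1 was lower (Cxcl12; background 15.2%), against 1 higher and 2 lower with TMM scaling. One barcode at 48 h was rich in erythroid genes and lifts the summed erythroid list to 20317 CPM in that library.

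In pooled leukocytes, 12 of 33 members tested were higher at 24 h (background 6.66%) and 9 were lower (background 11.6%). The 12 were the ligands Cxcl1, Cxcl2, Cxcl3, Cxcl14, Ccl2, Ccl6, Ccl7, Ccl9 and Ccl24 and the receptors Cxcr1, Cxcr2 and Ccr1, and the 9 were Xcl1, Ccl5, Cxcl10, Cxcl12, Cxcr3, Cxcr5, Cxcr6, Ccr4 and Ccr7. Of these 9, Xcl1 (-0.48), Ccl5 (-0.46), Cxcr3 (-0.57) and Ccr4 (-0.77) fell short of 2-fold when each barcode weighed the same, and Cxcr5 (-0.97) with at most 15000 UMIs. Cxcl12 turned to 0.26 with free RNA subtracted, and Cxcl10 to 0.78 with under 5% mitochondrial UMIs, as it did at 96 h (1.77). At 48 h 5 of 30 were higher (background 5.47%) and 6 lower (background 10.9%), or 7 and 5 with TMM scaling, and at 96 h 6 of 30 were higher (background 4.67%) and 5 lower (background 6.02%). At P14 3 of 28 were higher (background 10.8%) and 14 lower (background 14.4%). The median log2 ratio of the members was 0.22 at 24 h, 0.12 at 48 h, 0.14 at 96 h and -0.77 at P14, beside -0.24, -0.15, -0.03 and -0.03 over all genes tested. Cxcl1, Cxcl12, Cxcl14 and Ccl27a lay below free RNA in leukocytes of all 5 libraries, apart from Cxcl14 at P14 where both were 0. At 24 h free RNA was expected to supply 124 of the 248 UMIs of Cxcl1, 22.2 of 23 of Cxcl12, 42.5 of 81 of Cxcl14 and 8.41 of 34 of Ccl27a in leukocytes.

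A pooled level follows both the mixture of cells and the level per cell, so leukocytes were clustered without the members and named by marker genes that are not members. Neutrophil-like barcodes were 5.02% [3.74 to 6.58] of leukocytes in the adult control, 26.4% [22.8 to 30.1], 14.1% [12.1 to 16.2] and 11.7% [9.38 to 14.4] in the 24 h, 48 h and 96 h libraries and 21.1% [16.2 to 26.7] at P14. The 96 h and P14 shares depend on the clustering. In the first clustering, where 65 barcodes of 96 h and 20 of P14 fell in an unnamed cluster led by Il1b and Csf3r, neutrophil-like barcodes were 4.82% in the control, 1.95% at 96 h and 13.1% at P14, so the 96 h library then lay below the control. That cluster stayed unnamed because 5 neutrophil markers tied with 5 markers of another list. At 96 h it held Cxcr2 at 1179 CPM, Ccr1 at 687 and Ccr2 at 0, so the low 96 h share turns on its name. T-like barcodes were 58.0% of leukocytes in the control and between 11.2% (P14) and 34.0% (24 h) in the other libraries. B-like barcodes ranged from 4.38% (P14) to 43.6% (96 h), NK-like from 6.02% (96 h) to 19.5% (P14), monocyte-like from 1.43% (control) to 6.37% (P14) and plasmacytoid dendritic-like from 3.19% (P14) to 11.5% (24 h). At P14, 30.7% of leukocytes were B precursor-like. Different clusters held a type in different libraries: neutrophil-like barcodes came mainly from cluster 5 in the control (43 of 49), from cluster 14 at 24 h (107 of 156) and from cluster 20 at P14 (50 of 53). T-like, B-like, NK-like and plasmacytoid dendritic-like barcodes were likewise split between clusters by library, whereas monocyte-like barcodes came from cluster 12 throughout. That cluster is mixed, since Elane, Prtn3 and Ctsg, granule protease genes of myeloid precursors, are among its 10 leading genes beside Vcan and Fcgr1.

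Cxcr2, the neutrophil receptor of Cxcl1, Cxcl2 and Cxcl3 (chr1:74153989-74161246), stood in pooled leukocytes at 31.4 CPM in the adult control, 186, 133 and 80.1 in the 24 h, 48 h and 96 h libraries and 80.3 at P14. Every other library was above the control, by 5.92-fold at 24 h [5.07 to 6.94], 4.23-fold at 48 h, 2.55-fold at 96 h and 2.56-fold at P14. Within neutrophil-like barcodes the order was different: 849, 769, 659.6, 1057 and 667 CPM, with no library past 2-fold. With TMM scaling the log2 ratios of Cxcr2 in these barcodes turned from -0.14 to 0.81 at 24 h and from -0.36 to 0.88 at 48 h, still short of 2-fold. These barcodes held 87.1% to 99.1% of the Cxcr2 UMIs of leukocytes. The share of neutrophil-like barcodes was above the control in each of these 4 libraries, apart from 96 h in the first clustering, as given above.

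Ccr1, a receptor of Ccl3, Ccl5, Ccl6 and Ccl9, showed the same arrangement. It stood at 23.1, 157, 92.7, 54.0 and 49.6 CPM in pooled leukocytes in the order adult control, 24 h, 48 h, 96 h and P14, and at 524, 515, 402, 619 and 331 CPM in neutrophil-like barcodes, which held 73.0% to 86.1% of its UMIs. In the pool Ccr1 was 6.80-fold higher at 24 h [5.69 to 8.18] and in neutrophil-like barcodes it passed 2-fold nowhere, with TMM scaling at log2 ratios of 0.93 at 24 h and 0.86 at 48 h. Cxcr1, the second receptor of this family on neutrophils, had 36 UMIs or fewer in any library, at 53.3 CPM in control neutrophil-like barcodes and 34.8, 12.6, 19.3 and 0 in the others.

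Cxcl2, a Cxcr2 ligand made by activated myeloid cells (chr5:90903871-90905938), stood in neutrophil-like barcodes at 262 CPM in the adult control, 321, 380.2 and 171 in the 24 h, 48 h and 96 h libraries and 0 at P14. The 53 neutrophil-like barcodes of P14 held no Cxcl2 UMI, against 54, 332, 694 and 53 in the 4 adult libraries, and P14 was at least 35.9-fold lower than the control. The dissociation gene list was also lowest at P14 in these barcodes, at 1857 CPM, against 4563, 4014, 3105 and 5731 in the 4 adult libraries. Its part in the Cxcl2 difference was not tested. In pooled leukocytes Cxcl2 was 10.9-fold higher at 24 h [8.36 to 14.5] and 8.07-fold at 48 h [6.21 to 10.7]. Within neutrophil-like barcodes it was 1.23-fold at 24 h [0.918 to 1.67] and 1.45-fold at 48 h [1.10 to 1.95]. This turns on the scaling: with TMM the log2 ratios of Cxcl2 within neutrophil-like barcodes were 1.25 and 1.78, past 2-fold in both libraries. It also turns on the clusters: in the first clustering Cxcl2 was at 323 CPM in the control cluster led by Il1b and Csf3r (44 barcodes), at 442 and 809 in the cluster led by Wfdc17 and Ifitm1 at 24 h and 48 h (137 and 95), and at 48.7 and 134 in the cluster led by Ltf and Ngp (18 and 68).

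Ccl6, a CC ligand of myeloid cells, stood in neutrophil-like barcodes at 1397, 936, 520.5, 1747 and 569 CPM in the order adult control, 24 h, 48 h, 96 h and P14. It was highest in the control and 96 h libraries, and 2.68-fold lower at 48 h [2.34 to 3.06] and 2.45-fold lower at P14 [2.06 to 2.93] than in the control. In the clusters of the first clustering it stood at 1843 CPM in that control cluster, 1067 in the Wfdc17 cluster at 48 h, short of 2-fold, and 2306 at P14 in the unnamed Il1b cluster, above the control, but at 202 and 235 in the Ltf cluster at 48 h and P14. Cxcr4, the Cxcl12 receptor that marks aged neutrophils and retains young ones in marrow, was at 169.7, 65.8, 60.3, 290.1 and 122 CPM, with the same 2 adult libraries highest. It was 2.58-fold lower at 24 h [1.66 to 3.93] and 2.82-fold lower at 48 h [1.87 to 4.15]. All genes tested in neutrophil-like barcodes had a median log2 ratio of -0.63 at 24 h and -0.79 at 48 h, and with TMM scaling the log2 ratios of Cxcr4 were -0.41 and -0.25 and that of Ccl6 at 48 h was -0.18, none past 2-fold, and that of Ccl6 at P14 was -0.73. Members tested in neutrophil-like barcodes were higher in 1 of 11 at 24 h (background 4.62%) and lower in 2 (background 33.8%), and at 48 h 0 of 11 were higher (background 5.59%) and 6 were lower (background 41%). At 96 h 2 of 9 were higher (background 5.09%) and 1 was lower (background 13.8%), and at P14 0 of 7 were higher (background 6.25%) and 4 were lower (background 27.3%). With TMM scaling 3 members were higher and 1 was lower at 24 h, and likewise 3 and 1 at 48 h. Ccl5, one of the members called lower in all 4 comparisons, came from a single barcode in the control.

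**Figure D3:**
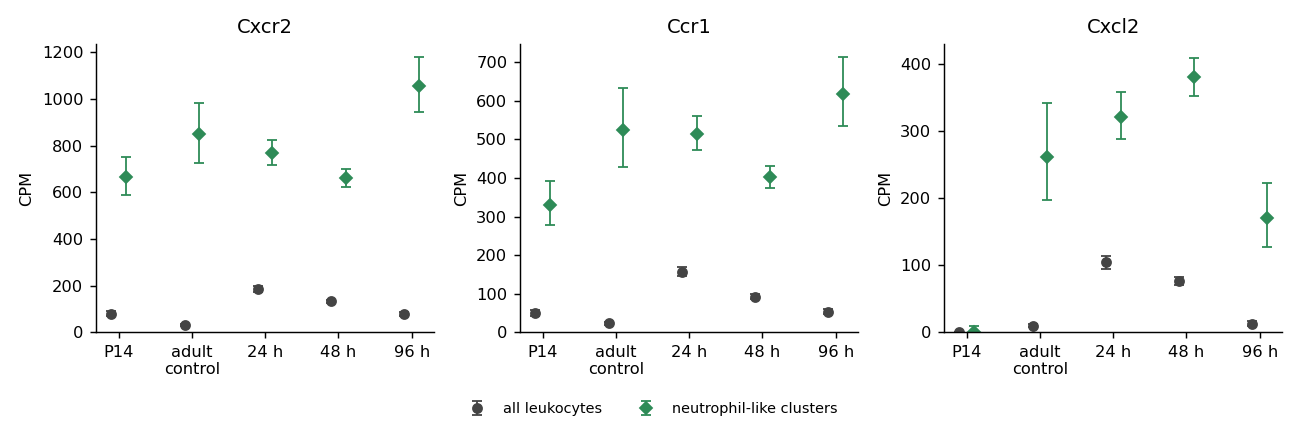
Cxcr2, Ccr1 and Cxcl2 (CPM, bars are exact 95% Poisson intervals) in all leukocytes (circles) and in neutrophil-like clusters (diamonds) of the 5 libraries. Cxcr2 in all leukocytes is lowest in the adult control at 31.4 and highest at 24 h at 186, while neutrophil-like clusters stay between 659.6 and 1057, and Cxcl2 is at 0 in both at P14.

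Monocyte-like barcodes, 14, 36, 40, 22 and 16 in number, carried the CC ligands that attract further monocytes. Ccl2, the main ligand of Ccr2 (chr11:82035571-82037453), stood in them at 16.6 CPM in the adult control, 139, 27.3 and 12.9 in the 24 h, 48 h and 96 h libraries and 7.13 at P14, from 3, 97, 23, 5 and 3 UMIs. The 24 h library was high and the others were low, and the ratio at 24 h was 8.42-fold [2.80 to 41.5], or 3.50 on the log2 scale with the barcode of most UMIs left out of each library. Monocyte-like barcodes held 93.3% of the leukocyte Ccl2 UMIs at 24 h. Ccl24, a ligand of the eosinophil receptor Ccr3, stood at 27.6, 161, 16.6, 98.0 and 2.38 CPM in the same order, 5.83-fold higher at 24 h [2.43 to 18.3] and 3.55-fold at 96 h [1.40 to 11.6].

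Cxcl2 in monocyte-like barcodes was at 38.6 CPM in the control and 175 at 24 h, 4.54-fold higher [2.14 to 11.5], and at 16.6, 0 and 0 at 48 h, 96 h and P14. Cxcl3, which lies beside Cxcl1 and Cxcl2 and binds Cxcr2 (chr5:90786103-90789600), had 54 UMIs at 24 h and 0 in the other 4 libraries, but 74% of the 54 came from 1 barcode. Ccl7, a further Ccr2 ligand, had 22 UMIs at 24 h and 0 in the control, and 73% of the leukocyte UMIs of Ccl7 at 24 h came from 1 barcode. Ccl6 and Ccl9 were lowest at P14: Ccl9 stood at 568, 651, 462, 338 and 61.8 CPM, 9.20-fold lower at P14 [5.94 to 14.7], and Ccl6 at 944, 1108, 572, 652 and 121 CPM, 7.79-fold lower [5.67 to 10.9]. The kinds of barcode in the type differed between libraries. The first clustering split it into a cluster led by Vcan and Clec4a1, with 13, 29, 35, 16 and 5 barcodes, and one led by Elane, Mpo and Ctsg, with 7, 11, 29, 19 and 15, so that the second kind held 7 of 20 in the control and 15 of 20 at P14. In the Vcan cluster Ccl6 was at 1174 CPM in the control and 1105 at P14, without the difference seen in the whole type, whereas Ccl9 was at 625 and 72.0, the last from 3 UMIs.

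Of the receptors in monocyte-like barcodes, Ccr2, the receptor for exit from marrow, stood at 1181 CPM in the adult control, 633, 793 and 529 in the 24 h, 48 h and 96 h libraries and 482 at P14. The control was highest, and the ratios at 96 h (2.23-fold lower [1.84 to 2.72]) and P14 (2.45-fold lower [2.01 to 2.98]) passed 2-fold. With each barcode weighing the same the log2 ratio at 96 h was -0.92. In the Vcan cluster of the first clustering Ccr2 stood at 1387 CPM in the control, 935 at 96 h, short of 2-fold, and 648 at P14, while in the Elane cluster it was at 96.2, 142 and 457. Cx3cr1, the receptor of patrolling monocytes, stood at 121, 11.5, 61.7, 111 and 47.5 CPM. It was lowest at 24 h, 10.6-fold below the control [4.53 to 27.4] on 8 and 22 UMIs. At P14 its direction was not stable: the log2 ratio was -1.34, but 0.74 with each barcode weighing the same, and in the Vcan cluster Cx3cr1 stood at 124 CPM in the control and 432 at P14, from 18 UMIs each. In all, 7 of 13 members tested were higher at 24 h (background 12.6%) and 1 was lower (background 10.5%), and at 48 h 4 of 12 were higher (background 11.1%) and 2 were lower (background 8.18%; with TMM scaling 1). At 96 h 1 of 8 was higher (background 10.7%) and 3 were lower (background 8.84%), and at P14 1 of 6 was higher (background 14.1%) and 5 were lower (background 13.5%). The dissociation gene list summed to 2301 CPM in monocyte-like barcodes of the control, 2741 and 3258 in the 24 h and 48 h libraries, and 1464 and 684 at 96 h and P14, where Ccr2 was called lower, and its part in these differences was not tested.

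NK-like barcodes held the highest level of Ccl5 and of Xcl1 in all 5 libraries. Ccl5, a ligand of Ccr1 and Ccr3, was the most abundant member: it stood at 15866 CPM in the adult control, 14491, 13609.9 and 19599.5 in the 24 h, 48 h and 96 h libraries and 15677 at P14. No library passed 2-fold. Xcl1, the ligand of the dendritic cell receptor Xcr1, stood at 440.4, 869, 914, 808 and 1159 CPM in the same order. The adult control was lowest, and the ratio passed 2-fold at 48 h (2.07-fold [1.78 to 2.43]) and P14 (2.63-fold [2.23 to 3.1]). With the expected free RNA subtracted, the log2 ratio at 48 h was 0.70, under 2-fold, and at P14 1.06.

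Ccl4 and Ccl3, inflammatory CC ligands, stood at 447 to 774 CPM and 189 to 345 CPM in NK-like barcodes with no ratio past 2-fold. Cxcr6, the receptor of Cxcl16 that retains lymphocytes in liver sinusoids, stood at 118, 220.3, 160.3, 137 and 489 CPM, and P14 was 4.13-fold above the control [3.08 to 5.6]. Cx3cr1, a receptor of mature NK cells, stood at 46.3, 29.8, 30.3, 88.1 and 0 CPM, and P14 with 0 UMIs was at least 5.30-fold lower. The 49 NK-like barcodes of P14 were all in cluster 23, whereas 81 of 106 in the control were in cluster 6. Of the members tested in NK-like barcodes, 1 of 11 was higher at 24 h (background 4.11%) and 1 was lower (background 16.6%), and 0 of 11 passed 2-fold at 96 h (background 2.93% higher and 14.1% lower). There were 2 of 10 higher at P14 (background 5.11%) and 2 were lower (background 15.8%), and at 48 h 2 of 13 were higher (background 3.8%) and 0 were lower (background 12.8%).

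T-like barcodes carried most of the Cxcr6 UMIs of adult leukocytes (83.3% to 95.3%). Cxcr6 stood in them at 521 CPM in the adult control, 300.2, 257 and 256 in the 24 h, 48 h and 96 h libraries and 20.5 at P14. All 3 libraries after surgery were below the control, by 2.03-fold at 48 h [1.85 to 2.22] and at 96 h [1.81 to 2.29], and P14 was 25.5-fold below [13.8 to 53.2] on 10 UMIs in 28 barcodes. With TMM scaling the log2 ratios at 48 h and 96 h were -0.89 and -0.92, both short of 2-fold. At P14 90.8% of the Cxcr6 UMIs of leukocytes lay in NK-like barcodes. Cxcr3, the receptor of Cxcl9 and Cxcl10 on activated T cells, stood at 200.02, 147, 143, 109 and 47.1 CPM, lowest at P14.

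Ccr7, the receptor that brings naive T and B cells to lymph nodes, stood at 177, 72.8, 172, 182 and 125 CPM in T-like barcodes, lower at 24 h alone by 2.43-fold [1.95 to 3.06]. B-like barcodes showed the same library low among the adults, at 156, 61.7, 147, 164 and 18.5 CPM, the last from 1 UMI, and the 24 h ratio was 2.53-fold lower [1.70 to 3.89], or -0.62 on the log2 scale with each barcode weighing the same. Ccl5 in T-like barcodes stood at 1522, 1883, 3815, 2215 and 622 CPM, 2.51-fold higher at 48 h [2.42 to 2.59] and 2.45-fold lower at P14 [2.18 to 2.76], the last short of 2-fold in the first clustering (log2 ratio -0.88). Xcl1 in T-like barcodes was 215 CPM in the control and 80.4 to 129 in the others, with 42% of the control UMIs from 1 barcode. In T-like barcodes 4 of 19 members tested were higher at 24 h (background 2.75%) and 4 were lower (background 11.1%). At 48 h 4 of 20 were higher (background 1.42%) and 5 were lower (background 13.3%; with TMM scaling 3), and at 96 h 1 of 18 was higher (background 2.1%) and 3 were lower (background 9.06%). At P14 0 of 17 were higher (background 7.64%) and 10 were lower (background 15.7%). Cluster membership of T-like barcodes differed by library, with clusters 3, 11 and 9 holding most of the control, cluster 13 most of 24 h, and clusters 8 and 7 most of 48 h.

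B-like barcodes carried Cxcr5, the Cxcl13 receptor of follicular B cells, at 64.2, 25.5, 63.1, 72.1 and 92.6 CPM, the last from 5 UMIs. The 24 h library was 2.51-fold below the control [1.35 to 5.10], or -0.70 on the log2 scale with each barcode weighing the same. Ccr6, the receptor of Ccl20, stood at 35.3, 12.8, 23.9, 31.7 and 18.5 CPM, again lowest at 24 h. Ccr10, a receptor of antibody-secreting cells, had a different order, at 54.9, 121, 75.3, 4.29 and 0 CPM: it was 2.21-fold higher at 24 h [1.51 to 3.24], with a log2 ratio of 0.71 in the first clustering, and 12.8-fold lower at 96 h [5.18 to 40.9]. The cluster of B-like barcodes led by plasma cell genes held 12, 10, 22, 3 and 0 barcodes in the same order of libraries. Its barcodes were deep, at a median of 27329 UMIs, while B-like barcodes had medians of 3469 to 4635 in the libraries. Summed levels weigh barcodes by depth, and the part of this cluster in the 24 h levels of Ccr7, Cxcr5 and Ccr6 was not tested. Of the members tested in B-like barcodes, 4 of 11 were higher at 24 h (background 4.58%) and 5 were lower (background 17.8%). At 48 h 2 of 12 were higher (background 3.23%) and 1 was lower (background 12.4%), and at 96 h 1 of 11 was higher (background 3.85%) and 2 were lower (background 6.91%).

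Ccr9, the gut-homing receptor of Ccl25, marked plasmacytoid dendritic-like barcodes, which were clustered and named without it. It stood at 933 CPM in the adult control, 969, 1209 and 958 in the 24 h, 48 h and 96 h libraries and 1347 at P14, the last from 8 barcodes, and no library passed 2-fold. These barcodes held 63.7% to 89.2% of the leukocyte Ccr9 UMIs. Of the members tested in these barcodes, 3 of 8 were higher at 24 h (background 3.18%) and 0 were lower (background 7.85%), and at 48 h again 3 of 8 were higher (background 4.51%) and 0 were lower (background 7.84%).

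Cxcr4 at 48 h was above the control in 5 types and below it in neutrophil-like barcodes, where the ratio fell short of 2-fold with TMM scaling. In plasmacytoid dendritic-like barcodes it stood at 25.5, 60.7, 100.2, 24.8 and 11.1 CPM, 3.92-fold higher at 48 h [2.11 to 8.08]. In B-like barcodes it stood at 54.9, 59.6, 135, 54.0 and 55.5 CPM, 2.47-fold higher at 48 h [1.85 to 3.34]. The ratio at 48 h was 2.80-fold in T-like, 3.74-fold in NK-like and 2.58-fold in monocyte-like barcodes. In monocyte-like barcodes Cxcr4 was also 2.64-fold higher at 24 h [1.22 to 6.80] and 3.50-fold higher at P14 [1.60 to 9.11]. The dissociation gene list at 48 h, beside the control, summed to 1934 and 1419 CPM in T-like, 2381 and 1860 in NK-like, 1997 and 1720 in B-like, 1024 and 1033 in plasmacytoid dendritic-like and 3105 and 4563 in neutrophil-like barcodes. In monocyte-like barcodes the list summed to 3258 CPM at 48 h and 2301 in the control, and to 684 at P14, where Cxcr4 was higher. At 48 h the list was lower where Cxcr4 was lower and level in plasmacytoid dendritic-like barcodes. Its part in the Cxcr4 differences was not tested.

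Some small types held the highest levels of members. Basophil or mast-like barcodes, 6, 1, 12, 4 and 2 in number, held Ccl3 at 5591, 199, 7565, 4641 and 2577 CPM and Ccl4 at 2143, 0, 7836, 3690 and 322 CPM in the order adult control, 24 h, 48 h, 96 h and P14. In the 48 h library the 12 barcodes held 474 of the 726 leukocyte Ccl3 UMIs. Conventional dendritic-like barcodes, 4, 13, 18, 13 and 3 in number, held all 40 Xcr1 UMIs of P14, 82% of them in 1 barcode. Xcr1 is the receptor of cross-presenting dendritic cells and the partner of Xcl1. The same type held 59.3% of the Cxcl16 UMIs of leukocytes at 48 h and 75% at 96 h.

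**Figure D4:**
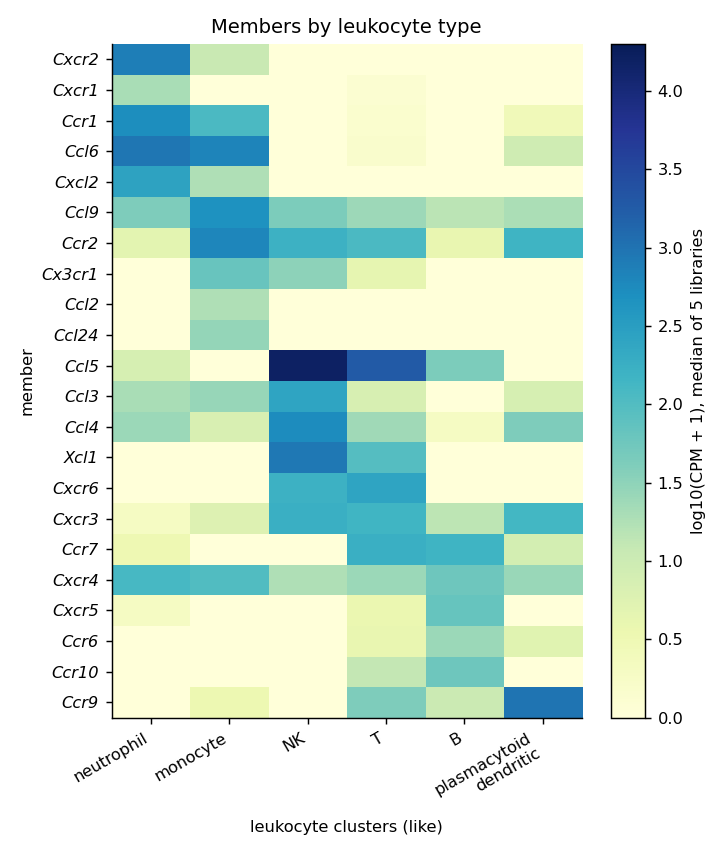
Median over the 5 libraries of the level of 22 members (rows) in 6 leukocyte types (columns), coloured as log10(CPM + 1). Cxcr2, Ccr1 and Cxcl2 are highest in neutrophil-like, Ccr2 and Ccl9 in monocyte-like, Ccl5 and Xcl1 in NK-like, Cxcr5 and Ccr10 in B-like and Ccr9 in plasmacytoid dendritic-like clusters.

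Other genes of the pathway were read from 3 lists. Of 27 signalling partners of chemokine receptors and related ligands, 26 were tested in leukocytes at 24 h, of which 2 were higher (log2 ratios 3.67 for the platelet chemokine Pf4 and 1.5 for the receptor kinase Grk5; background 6.66%) and 0 were lower (background 11.6%). In endothelial barcodes 4 of 8 were higher at 24 h (background 17.7%): the receptor kinase Grk2 (2.01), the G protein subunits Gnb1 (1.495) and Gnai2 (1.139), and the arrestin Arrb2 (1.34). At 48 h the same 4 genes were higher (background 19.3%), with log2 ratios of 2.08, 1.75, 1.28 and 2.10. In endothelial barcodes the median log2 ratio of all genes tested was 0.24 at 24 h and 0.25 at 48 h. Markers of other cells moved in the same endothelial barcodes: the 6 hepatocyte markers summed to 32849 CPM in the adult control, 8763 and 9293 at 24 h and 48 h, 47441 at 96 h and 24233 at P14, and the Kupffer list was highest at 24 h and 48 h (549 and 497 CPM, against 73.5 in the control). Their part in the endothelial ratios of this list and of the 2 lists that follow was not tested.

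Among 20 adhesion genes, 4 of 16 tested in leukocytes were higher at 24 h (background 6.66%), with log2 ratios of 3.18 for the junction gene Jam2, 2.14 for the myeloid integrin subunit Itgam, 1.89 for the selectin Selp and 1.73 for the endothelial cadherin Cdh5, and 1 was lower (Itgb7, -1.14; background 11.6%). The 9 neutrophil markers summed to 4426 CPM in leukocytes of the control and 90457 at 24 h, and within neutrophil-like barcodes the log2 ratio of Itgam was -0.03. The endothelial list in leukocytes stood at 25.8 CPM in the control and 45.8 at 24 h and the platelet list, which holds Pf4 itself, at 1.56 and 21.1. Plasmacytoid dendritic-like barcodes held 35 of the 52 leukocyte UMIs of Cdh5 in the control and 112 of the 128 at 24 h. Within them Cdh5 stood at 81.3 and 234 CPM, a log2 ratio of 1.52. The part of the endothelial and platelet lists in the ratios of Jam2, Selp and Cdh5 was not tested. In endothelial barcodes at 24 h 4 of 9 were higher (background 17.7%), with log2 ratios of 2.14 for Jam2, 1.66 for Icam1, 1.39 for Itgb1 and 1.24 for Cdh5, and Vcam1 was lower at -1.30 (background 10.8%). Among 22 genes upstream of chemokine transcription, 1 of 19 was higher in leukocytes at 24 h (the cytokine Il1b, 1.94; background 6.66%). Neutrophil-like barcodes held 1110 of its 1198 UMIs at 24 h, and within them Il1b stood at 2032 CPM in the control and 1074 at 24 h, a log2 ratio of -0.92. With TMM scaling the log2 ratios of neutrophil-like barcodes at 24 h, those of Il1b and Itgam included, move by 0.96 towards higher values. In endothelial barcodes 4 of 11 were higher at 24 h (background 17.7%), with log2 ratios of 2.37 for the adaptor Myd88, 2.19 and 1.69 for the NF-kB subunits Rel and Rela and 1.60 for the receptor Il1r1. These ratios rest on few control counts: Myd88 had 2 UMIs in the control and 25 at 24 h, and Rel 2 and 22. Rela had 7 and 51, and Il1r1 24 and 161. In hepatocytes at 24 h Il1r1 (2.11) and the NF-kB feedback gene Tnfaip3 (1.12) were higher (background 8.4%) and Irf1 (-1.37) was lower (background 6.87%), of 16 tested.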

How the data were processed

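The authors deposited raw UMI counts per gene and barcode, unfiltered, for 5 single-cell libraries. Per the submitters' processing notes bcl2fastq 2.17.1.14, Cell Ranger, Seurat 3.1 and the build mm10 were used, and per the file headers the software version was 3.0.2. Barcodes were classed by the thresholds given above, and those meeting 2 class rules (5 to 19 per library) were left out. No doublet caller was run, and a limit of 15000 UMIs was tried in its place. UMIs were summed per class and library without mitochondrial genes and divided by the total (CPM). A pseudocount of 1 CPM was used for log2 ratios and calls but not for printed folds. Depth was 80927744 to 136110607 UMIs per library. Leukocytes were clustered with scanpy 1.11.5 and leidenalg 0.10.2 (2000 variable genes, 30 components, 15 neighbours, resolution 1), leaving out the members, mitochondrial genes and 5370 genes abundant in free RNA. Leaving out the latter, centring each library and naming clusters in 2 steps from at least 3 markers were chosen after a first clustering was seen. Cluster 21 stayed unnamed. The rule for naming took members with at least 20 UMIs in a library of a class with their levels, and those past 2-fold with their ratio, the 10 largest each way per comparison. It took genes of other lists where past 2-fold, the 5 largest each way. Not all of these are printed: some members past 2-fold enter only the counts, and the other lists are given for few comparisons. A gene that is not named can therefore differ from the control. Some genes are not reported here. The gene family and the lists were chosen with earlier results of these data known, although the rule for members reads names alone. Gene positions are from GENCODE M21 (GRCm38, 60 of 67 features matched) and promoters from RefSeq (46 of 62 symbols matched, 4 of them with several starts). The class sums and calls were tested on simulated data. Alternatives covered the pseudocount, UMI minimum, scaling, weighting, free RNA, class limits and clustering.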

Additional observations from a re-analysis of the deposited data

How the results depend on the processing

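No paired analysis was possible because each group has 1 library, and no replicate could be left out. Over 132 counts of members past 2-fold in the 3 classes under the alternatives, 100 were within 1.5 times the value given in the report and 32 were not. Of 765 gene ratios in the classes 8 had the opposite sign to the called ratio, and another 229 lay outside its counting interval. Of 735 in leukocyte types 11 had the opposite sign, and another 80 lay outside the interval. A ratio went under 2-fold in 66 of 190 cases with a pseudocount of 10 CPM, 33 of 190 with equal weight for each barcode, 17 of 66 with at most 15000 UMIs and, in hepatocytes, 6 of 19 with 10% to 20% mitochondrial UMIs. Leaving out the barcode with the most UMIs of a gene, leaving out endothelial barcodes with a Kupffer-list UMI, and the first clustering, with the levels in its separate clusters, were added after seeing the data.

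With a pseudocount of 10 CPM the counts of members were 5 at 48 h, 5 at 96 h and 7 at P14 in leukocytes (11, 11 and 17 as reported) and 1 at 24 h, 0 at 96 h and 1 at P14 in hepatocytes (5, 5 and 7 as reported). In endothelial barcodes, where 4, 1, 0 and 2 members were called at 24 h, 48 h, 96 h and P14, the counts were 10, 13, 9 and 13 with no UMI minimum. With at least 50 UMIs they were 1 at 24 h and 0 at P14, with equal weight 2 at 48 h and 1 at P14, with the leukocyte limits on depth 1 at 24 h and 1 at P14, and with the top barcode left out 2 at 24 h. Without barcodes holding a Kupffer-list UMI they were 1 at 24 h (0 higher and 1 lower) and 0 at 48 h, with at least 4 endothelial genes 2 at 48 h, with free RNA subtracted 1 at 96 h and with at most 15000 UMIs 1 at P14. In hepatocytes with 5% to 30% mitochondrial UMIs they were 14 at 24 h, 9 at 48 h and 20 at P14, and with 10% to 20% they were 6 at 48 h, 2 at 96 h and 4 at P14. Equal weight gave 4 at 48 h and 3 at 96 h, at least 50 UMIs gave 3 at 96 h, and hepatocytes without a leukocyte marker gave 4 at 48 h.

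These log2 ratios changed direction. With free RNA subtracted, Cxcl12 was 0.26 at 24 h, 2.24 at 48 h and 2.96 at P14 in leukocytes, 2.06 in T-like and 0.22 in B-like barcodes at 48 h, Ccl9 was 0.26 in T-like barcodes at P14 and Cxcl1 was -0.84 in NK-like barcodes at 24 h. With under 5% mitochondrial UMIs, Cxcl10 in leukocytes was 0.78 at 24 h and 1.77 at 96 h. In hepatocytes at 96 h, Cx3cr1 was 0.19 and Ccl5 0.075 with 5% to 30% mitochondrial UMIs, and Ccr2 was 0.039 with 10% to 20%. With the top barcode left out, Ccl5 was 2.19 and Ccl4 -0.27 in neutrophil-like barcodes at 96 h, and Ccl4 was 1.12 at 96 h and 1.51 at P14 in plasmacytoid dendritic-like barcodes. With equal weight Cx3cr1 was 0.74 in monocyte-like barcodes at P14. With the first clustering Ccl5 was -0.020 in B-like barcodes at 48 h and Ccr9 was 2.31 in neutrophil-like barcodes at P14. The cause of these changes was not tested. TMM scaling moved the ratios of neutrophil-like barcodes towards higher values by 0.96 at 24 h, 1.25 at 48 h, 0.26 at 96 h and 0.56 at P14, and moved those of B-like barcodes at P14 by -0.55.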
